A study of Homo sapiens with 8 samples.

Results

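The genes described here encode the spliceosome and its regulators, and were chosen by symbol: the snRNP proteins (SNRP and SNRNP genes), the PRPF factors, U2AF, the SR proteins (SRSF and TRA2) and SRRM proteins, the hnRNPs, the numbered RBM and LSM genes, and the SR protein kinases of the CLK and SRPK families. Of 14884 named genes in the table, 124 met the rule. They comprise 113 protein-coding genes, of which HNRNPCL2 was given no role here, 6 pseudogenes and 5 antisense RNAs. SF3A and SF3B genes, SRSF9, SRSF10, RBM3 and every numbered LSM gene except LSM12 have no named probe here and were not analysed. RNA came from THP-1, an established human acute myeloid leukemia line of monocytic character. The RNA was measured on 1-colour Affymetrix whole-transcript arrays, which do not measure which exons are joined. The values are log2 levels per platform identifier, called a probe here, and 1 such probe was used per gene. The groups were IPA-3 at 6 µg/mL (2 arrays), FRAX-597 at 2 µg/mL (2 arrays) and an equal volume of the solvent DMSO (4 arrays), each after 5 h in the same line. IPA-3 is an allosteric inhibitor of group I p21-activated kinases that does not compete with ATP, and FRAX-597 is an ATP-competitive inhibitor of the same kinases. The series asks about PAK1 as a target in myeloid malignancy.

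Introns are removed by the spliceosome, which assembles on each intron from the U1, U2, U4, U5 and U6 small nuclear ribonucleoproteins. U1 recognises the start of the intron, U2AF and U2 recognise its branch point and end, and the tri-snRNP of U4, U6 and U5 brings in the parts that form the active site. SR proteins mostly promote the use of nearby exons and hnRNPs often oppose them, while SRPK and CLK kinases phosphorylate SR proteins and so control where they act. Several splicing factor genes, among them SF3B1, SRSF2, U2AF1 and ZRSR2, are recurrently mutated in myelodysplastic syndrome and acute myeloid leukemia.

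The arrays fell into 2 sets of 4 that carry no label. IPA-3 1 and 2 with DMSO 1 and 2 had medians over all probes of 5.51 to 5.55, and FRAX-597 1 and 2 with DMSO 3 and 4 had medians of 6.00 to 6.05. Each compound was therefore compared with DMSO within one set, and the compounds differ in dose and in array set. Of 12 monocytic markers measured, 11 lay above the median of all probes on every array, with CD68 between 11.67 and 12.09, while the fibroblast genes DCN and LUM lay below it on every array. Markers of other lineages also lay above it on every array, 3 of 5 T cell, 3 of 6 epithelial and 1 of 3 B cell genes. A level above that median does not by itself mark a lineage. The monocytic list had a median change of -0.15 with IPA-3 and 0.02 with FRAX-597. Both IPA-3 arrays lay below both DMSO arrays for 7 of the 12 (against 28.3% of all genes) and above them for 2 (against 19.3%), and its part in the results below was not tested. Of the 124 splicing genes, 116 were above the lower quartile of all probes on every array, and 85 were above the upper quartile on every array (68.55%, against 31.56% of all named genes).

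No splicing gene passed the test with either compound. In limma with Benjamini-Hochberg adjustment over all 14884 genes, 0 of 124 had an adjusted p under 0.05 with IPA-3, where 0.0336% of all genes were called, and 0 of 124 with FRAX-597, where 0.155% were called. The difference between the FRAX-597 change and the IPA-3 change also passed for 0 of 124, against 0.0134% of all genes. The lowest adjusted p of any member was 0.391, for SRSF8 with FRAX-597. At an unadjusted p under 0.05, IPA-3 gave 5 members, where the share over all genes was 7.21%, with 0 higher (3.1% of all genes) and 5 lower (4.03% of members, against 4.11% of all genes). FRAX-597 gave 6, where the share over all genes was 7.66%, with 2 higher (1.61% of members, against 4.04%) and 4 lower (3.23%, against 3.61%). The difference between the compounds gave 2, where the share over all genes was 6.11%, with RBM48 above 0 (0.807% of members, against 3.43%) and SRSF8 below 0 (0.807%, against 2.67%). These shares are at or under the background. These counts moved with single arrays, and the share over all genes moved too. The IPA-3 count was 1 without DMSO 1 (against 4.16% of all genes) or without DMSO 2 (against 3.3%), and 2 without IPA-3 2 (against 3.86%). The FRAX-597 count was 3 without DMSO 1 or without DMSO 2 (against 5.56% of all genes in each), and 15 without FRAX-597 2 (against 13.4%), where 227 of all genes and 0 members passed after adjustment.

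The changes were small on the scale of the measurement. With IPA-3 they ran from -0.54 to 0.30 log2, and with FRAX-597 from -0.53 to 0.48, with a median standard error of 0.13. The 95% interval of the change lay within a 2-fold change in either direction for 122 of 124 members with IPA-3 (98.39%, against 94.89% of all genes). With FRAX-597 it did so for 121 (97.58%, against 94.14%). The median change was -0.07 with IPA-3, where the median of all genes was -0.02, and -0.03 with FRAX-597, where the median of all genes was also -0.02. With IPA-3, 88 of 124 members had a change below 0 (70.97%, against 55.58% of all genes), and with FRAX-597 68 did (54.84%, against 54.7%). Both IPA-3 arrays lay below both of their DMSO arrays for 50 members (40.3%, against 28.3% of all genes), and above them for 14 (11.3%, against 19.3%). For FRAX-597 the same counts were 22 below (17.7%, against 17.8%) and 12 above (9.68%, against 13.0%). The excess of low values with IPA-3 was larger on 1 of the 2 arrays. IPA-3 2 had a median difference of -0.08 from the DMSO mean over the members and IPA-3 1 one of -0.02, while over all genes they were -0.03 and -0.02.

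**Figure D1:**
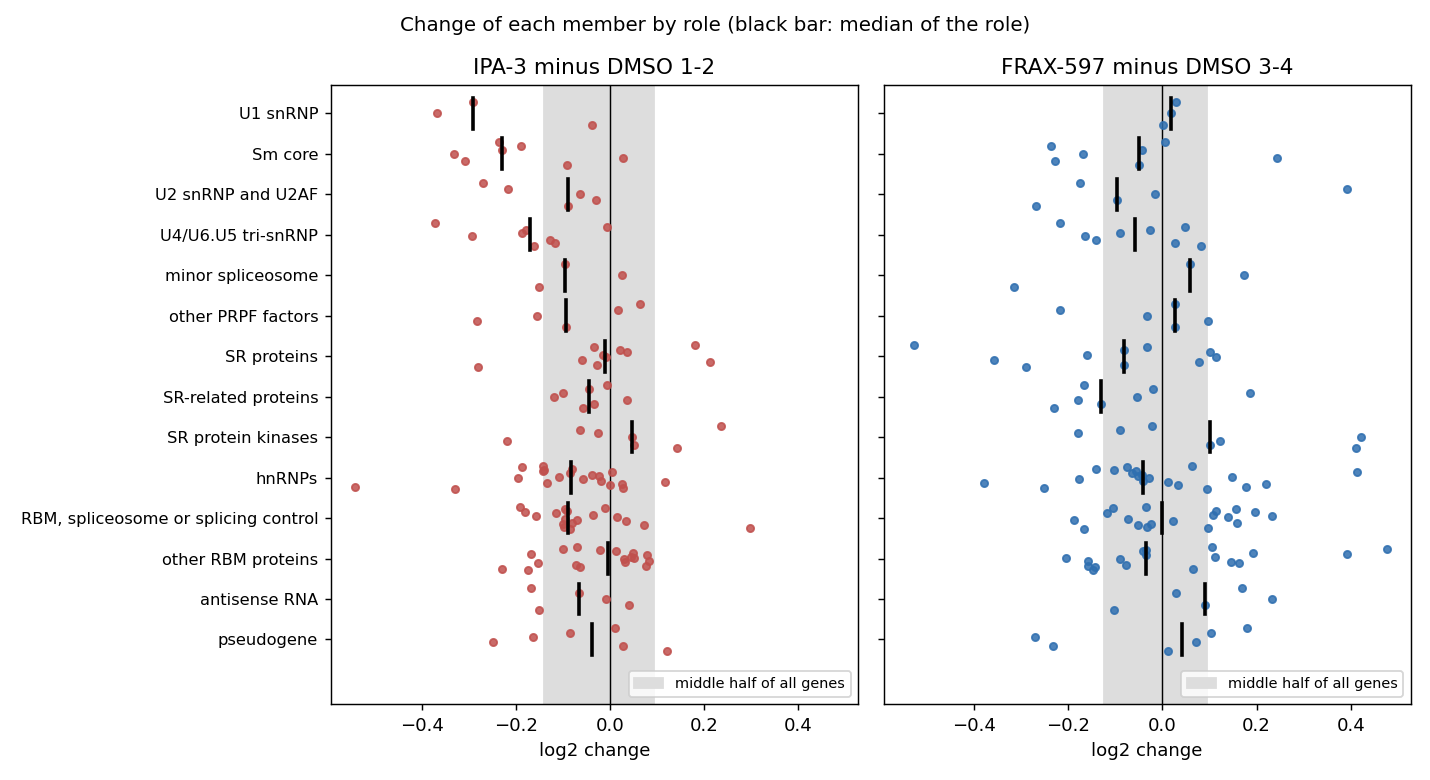
Log2 change of each splicing gene except LSM12 and HNRNPCL2 (points) by role, with the role's median (black bar) and the interquartile range of all genes (grey band), for IPA-3 minus DMSO 1-2 (left) and FRAX-597 minus DMSO 3-4 (right). With IPA-3 all 8 tri-snRNP members lie below 0, and no member lies beyond -0.54 or 0.30.

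The proteins of the small nuclear ribonucleoproteins, with U2AF and the PRPF factors, gave 31 members, and with IPA-3 27 of them had a change below 0 (against 55.58% of all genes), with a median of -0.16. For 19 of the 31 both IPA-3 arrays lay below both DMSO arrays (against 28.3% of all genes), and for 1 they lay above (against 19.3%). All 5 members at an unadjusted p under 0.05 with IPA-3 belong here, each lower (against 4.11% of all genes), and none passed after adjustment. With FRAX-597 17 of the 31 were below 0 (against 54.7% of all genes), with a median of -0.03. Both FRAX-597 arrays lay below both DMSO arrays for 8 of the 31 (against 17.8% of all genes) and above them for 2 (against 13.0%). At an unadjusted p under 0.05, 2 of the 31 were lower with FRAX-597, SNRNP25 and SNRPA1 (against 3.61% of all genes). The IPA-3 array that stood lower over all members did so here too, with a median difference from DMSO of -0.22 and 28 of 31 below, against -0.06 and 26 of 31 in IPA-3 1. Without IPA-3 2, the median of the 31 relative to all genes was -0.04, in place of -0.13 with both arrays. The roles were assigned with earlier results of these data known, so these counts are descriptions. They include SNRPE by a probe whose gene of origin is uncertain, as described below.

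U1 was represented by its 3 specific proteins. SNRPA, which binds a stem-loop of U1 RNA, had 9.71 and 9.44 in IPA-3 1 and 2, against 9.93 and 9.95 in DMSO 1 and 2. In the second set it had 10.67 and 10.90 in FRAX-597 1 and 2, against 10.66 and 10.87 in DMSO 3 and 4. The IPA-3 arrays were both below their DMSO arrays, and the FRAX-597 arrays lay level with theirs. The change was -0.37 ± 0.14 (SE, adjusted p = 0.654, limma) with IPA-3 and 0.02 with FRAX-597, and the compounds differed by 0.39 (95% interval -0.08 to 0.85). SNRPC, which steadies U1 on the start of the intron, had 8.102 and 7.998 in IPA-3, against 8.35 and 8.33 in DMSO 1 and 2. It had 8.68 and 8.63 in FRAX-597, against 8.67 and 8.58 in DMSO 3 and 4. Its change with IPA-3 was -0.29 ± 0.10 (adjusted p = 0.630), with no overlap between the groups, and 0.03 with FRAX-597. SNRNP70, the U1-70K protein on which SR proteins dock, had changes of -0.04 with IPA-3 and 0.00 with FRAX-597.

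In the U4/U6.U5 tri-snRNP all 8 members had an IPA-3 change below 0 (against 55.58% of all genes), with a median of -0.17. For 6 of them both IPA-3 arrays lay below both DMSO arrays (against 28.3% of all genes). With FRAX-597 5 of the 8 had a change below 0 (against 54.7% of all genes), with a median of -0.06. Both FRAX-597 arrays lay below both DMSO arrays for 2 of the 8 (against 17.8% of all genes). SNRNP40, a U5 protein of WD40 repeats, had 8.30 on both IPA-3 arrays, against 8.58 and 8.76 in DMSO 1 and 2. It had 9.18 and 9.31 in FRAX-597, against 9.48 and 9.44 in DMSO 3 and 4, so that it was lower on every treated array than on either of its DMSO arrays. The changes were -0.37 ± 0.11 with IPA-3 (adjusted p = 0.570, the lowest of any member for that compound) and -0.22 ± 0.11 with FRAX-597 (adjusted p = 0.765). PRPF6, which bridges U5 and U4/U6, had 9.38 and 9.30 in IPA-3, against 9.67 and 9.59 in DMSO 1 and 2. Its change was -0.29 ± 0.12 (adjusted p = 0.675), and -0.16 with FRAX-597. PRPF8, the large U5 protein that cradles the catalytic centre, had changes of -0.19 with IPA-3 and -0.09 with FRAX-597, each with a standard error of 0.15.

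The Sm proteins form the ring shared by most spliceosomal snRNPs, and 6 of 7 had an IPA-3 change below 0 (against 55.58% of all genes). With FRAX-597 5 of 7 did (against 54.7% of all genes). SNRPD1 had 9.98 and 9.83 in IPA-3, against 10.24 and 10.19 in DMSO 1 and 2. It had 7.64 and 7.49 in FRAX-597, against 7.91 and 7.68 in DMSO 3 and 4. Both compounds' arrays were below their own DMSO arrays, by -0.31 ± 0.13 with IPA-3 (adjusted p = 0.674) and -0.23 with FRAX-597 (adjusted p = 0.780). SNRPD3 had changes of -0.33 with IPA-3 and -0.17 with FRAX-597, and SNRPD2 was the Sm member with changes above 0 with both compounds, 0.03 with IPA-3 and 0.24 with FRAX-597. SNRPE had a second probe that differed from the one kept, though their means over all arrays were close, 6.289 and 6.312. The platform number of the probe kept lies between those of PRPF4 and HNRNPK, both on chromosome 9, while SNRPE is on chromosome 1. That of the second lies between those of PRPF3 and HNRNPCL1, both on chromosome 1. Whether the probe kept reads SNRPE or another sequence was not tested. The second probe gave 0.0352 with IPA-3, against -0.23 for the probe kept. By it 5 of 7 Sm genes would be below 0 with IPA-3. With FRAX-597 the second probe gave -0.35, against -0.04.

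At the other end of the intron, U2AF1 and U2AF2, the small and large subunits of the factor that reads the intron's last bases, had IPA-3 changes of -0.06 and -0.27. Their FRAX-597 changes were -0.02 and -0.17. SNRPA1, a protein specific to the U2 snRNP, had 7.93 and 7.98 in FRAX-597, against 8.22 and 8.23 in DMSO 3 and 4, a change of -0.27 ± 0.11 (adjusted p = 0.612) with no overlap. With IPA-3 its change was -0.09. In the minor spliceosome, which removes a rare class of introns, SNRNP25 had 7.20 and 7.41 in FRAX-597, against 7.55 and 7.69 in DMSO 3 and 4. That change was -0.32 ± 0.13 (adjusted p = 0.615), and with IPA-3 it was -0.15.

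**Figure D2:**
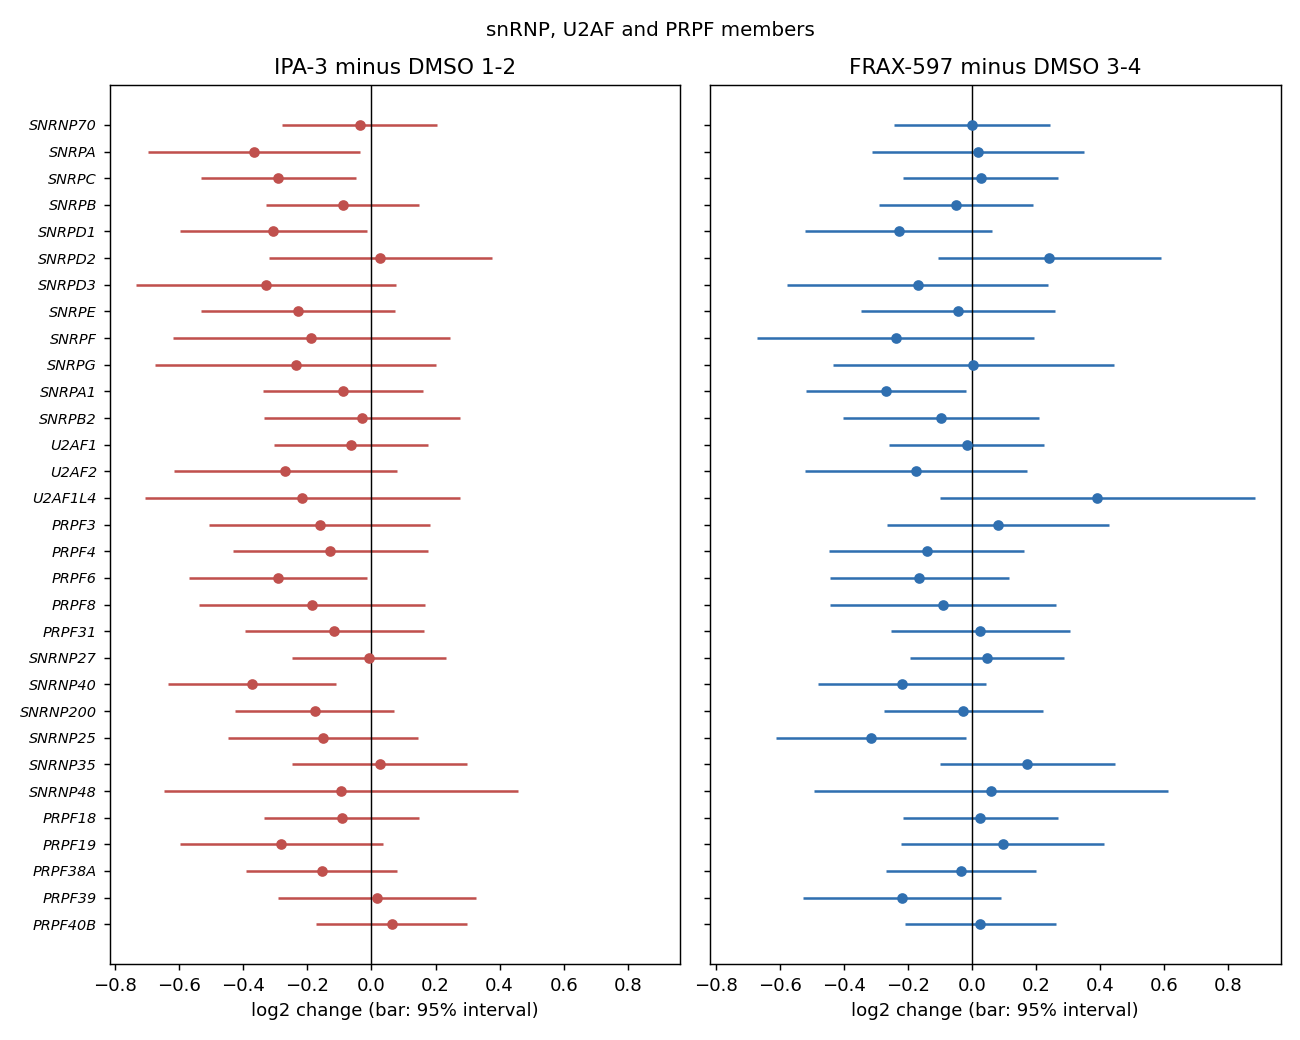
Log2 change (points) with 95% interval (bars) of the 31 snRNP, U2AF and PRPF members, for IPA-3 minus DMSO 1-2 (left) and FRAX-597 minus DMSO 3-4 (right). With IPA-3 27 of the 31 points lie below 0 and 5 intervals exclude 0 before adjustment. With FRAX-597 17 lie below 0 and 2 intervals exclude 0 before adjustment.

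The kinases that phosphorylate SR proteins held the only members that were higher at an unadjusted p under 0.05. CLK4 had 8.68 and 8.46 in FRAX-597, against 8.16 and 8.14 in DMSO 3 and 4, and 7.79 and 7.78 in IPA-3, against 7.84 and 7.64 in DMSO 1 and 2. The FRAX-597 arrays did not overlap with DMSO and the IPA-3 arrays lay between theirs. The changes were 0.42 ± 0.12 with FRAX-597 (a 1.34-fold level, adjusted p = 0.403) and 0.05 with IPA-3. CLK1 had 9.26 and 8.91 in FRAX-597, against 8.58 and 8.76 in DMSO 3 and 4, and 8.53 and 8.39 in IPA-3, against 8.38 and 8.25 in DMSO 1 and 2. Both compounds' arrays lay above their DMSO arrays, by 0.41 ± 0.15 (adjusted p = 0.554) with FRAX-597 and by 0.14 (adjusted p = 0.889) with IPA-3. The difference between the compounds was 0.37 for CLK4 (95% interval -0.03 to 0.78) and 0.27 for CLK1 (-0.22 to 0.75), so neither was resolved. CLK2 and CLK3 had FRAX-597 changes of 0.10 and 0.12, and IPA-3 changes of 0.05 and -0.22. SRPK1 and SRPK2, the mainly cytoplasmic kinases of SR proteins, had FRAX-597 changes of -0.18 and -0.09 and IPA-3 changes of -0.03 and -0.06, and SRPK3 had -0.02 with FRAX-597 and 0.24 with IPA-3.

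Among the 10 SR proteins, SRSF8, a processed copy of SRSF2 that shares sequence with it, had the largest difference between the compounds. It had 8.25 and 7.93 in FRAX-597, against 8.66 and 8.57 in DMSO 3 and 4, and 7.45 and 7.75 in IPA-3, against 7.43 and 7.40 in DMSO 1 and 2. The FRAX-597 arrays lay below DMSO and the IPA-3 arrays above it. The changes were -0.53 ± 0.15 with FRAX-597 (adjusted p = 0.391) and 0.18 with IPA-3, and the difference between them was -0.71 ± 0.21 (95% interval -1.21 to -0.21, adjusted p = 0.667). SRSF2, an exon-promoting SR protein, had 10.02 and 10.58 in FRAX-597, against 10.55 and 10.76 in DMSO 3 and 4. The groups overlapped, and the change was -0.36 ± 0.19 (adjusted p = 0.775), against -0.06 with IPA-3. SRSF1, the founding SR protein, had 11.39 and 11.12 in IPA-3, against 11.55 and 11.52 in DMSO 1 and 2, a change of -0.28 ± 0.20. With FRAX-597 its change was -0.29 ± 0.20, and the groups overlapped. SRSF3 and SRSF7, and the SR-related TRA2A, were each within 0.2 of 0 with both compounds. Of the 7 SR-related proteins, 6 were below 0 with each compound (against 55.58% of all genes with IPA-3 and 54.7% with FRAX-597). Their medians were -0.04 with IPA-3 and -0.13 with FRAX-597. SRRM2, a large scaffold of nuclear speckles, had -0.03 with IPA-3 by the probe kept and 0.49 by its second probe.

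**Figure D3:**
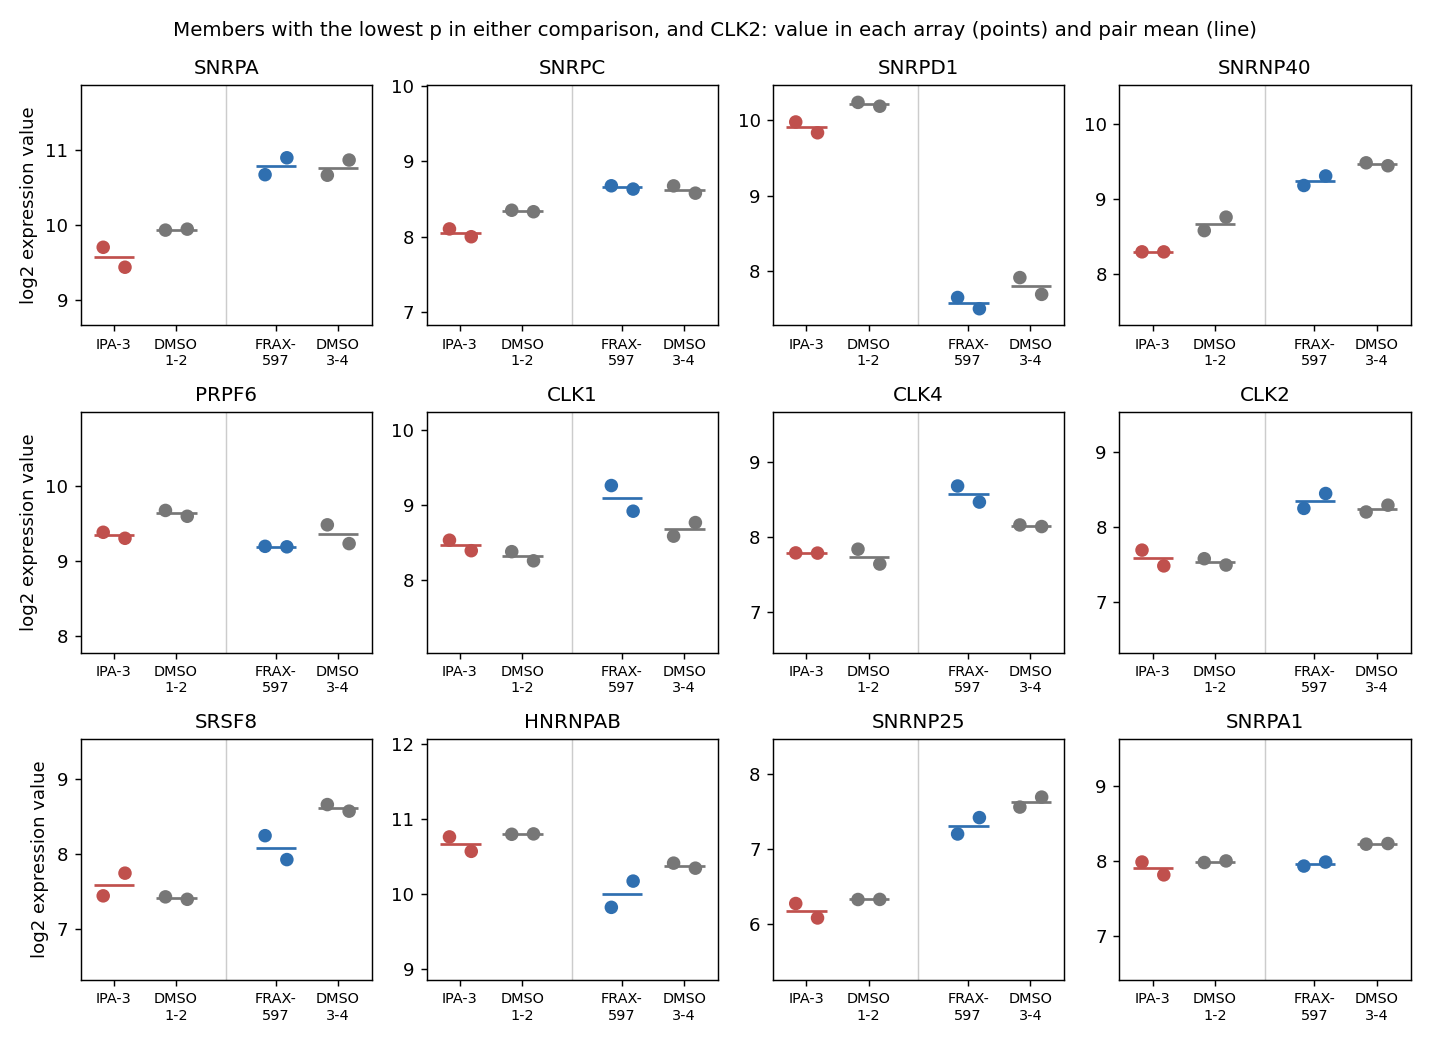
Log2 level on every array (points, lines for pair means) of the splicing genes with the lowest p with either compound, and of CLK2, with each compound's arrays left of the DMSO arrays of the same set. CLK4 and CLK1 lie higher in FRAX-597 than in DMSO 3-4, SRSF8 lies lower, and SNRNP40, SNRPA and SNRPC lie lower in IPA-3 than in DMSO 1-2.

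Promoters are shown for 4 genes that these values turn on: SNRPA and SNRPC, the U1 genes with both IPA-3 arrays below DMSO, and CLK1 and CLK4, with both FRAX-597 arrays above it. Each line gives the 250 bases upstream of the RefSeq start on GRCh38.p14, 5′ to 3′ on the gene's strand, and for CLK1 the first of 2 RefSeq windows. Capitals mark the E-box CACGTG and the ETS core CGGAAG, each searched on both strands.

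SNRPA (chr19:40750953-40751202, plus strand): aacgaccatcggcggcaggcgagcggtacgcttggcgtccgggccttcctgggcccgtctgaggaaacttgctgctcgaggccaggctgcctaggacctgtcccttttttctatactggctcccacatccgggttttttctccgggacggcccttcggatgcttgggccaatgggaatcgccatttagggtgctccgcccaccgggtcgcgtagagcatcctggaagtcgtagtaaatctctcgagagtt

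SNRPC (chr6:34757255-34757504, plus strand): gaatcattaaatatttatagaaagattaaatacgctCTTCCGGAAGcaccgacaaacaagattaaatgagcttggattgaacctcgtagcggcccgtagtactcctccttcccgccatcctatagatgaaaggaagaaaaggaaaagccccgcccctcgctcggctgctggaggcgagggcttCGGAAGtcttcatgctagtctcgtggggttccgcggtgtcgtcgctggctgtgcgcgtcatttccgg

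CLK1 (chr2:200864659-200864908, minus strand): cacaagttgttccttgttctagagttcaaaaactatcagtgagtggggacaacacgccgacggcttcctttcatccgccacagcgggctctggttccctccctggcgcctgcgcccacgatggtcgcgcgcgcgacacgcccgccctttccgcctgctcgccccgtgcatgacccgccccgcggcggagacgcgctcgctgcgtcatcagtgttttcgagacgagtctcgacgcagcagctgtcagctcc

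CLK4 (chr5:178627051-178627300, minus strand): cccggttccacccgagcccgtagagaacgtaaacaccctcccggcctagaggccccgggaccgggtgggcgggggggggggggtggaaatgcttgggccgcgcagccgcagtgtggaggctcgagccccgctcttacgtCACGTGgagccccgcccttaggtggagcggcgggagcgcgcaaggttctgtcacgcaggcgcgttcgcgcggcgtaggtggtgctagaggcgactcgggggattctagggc

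SNRPC held 3 ETS matches, 2 of them overlapping in 1 palindrome, CLK4 held 1 E-box, and SNRPA and CLK1 held neither motif. RefSeq windows were found for 106 of the 124 members. The ETS core occurred in 31.7% of the 139 windows of members and in 16.5% of all 35116 windows, and the E-box in 8.63% and 6.34%. All windows cover 27305 genes, whether or not they have a named probe here, and genes of like level were not compared. A match is a run of letters and not a measured binding site.

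Among the 20 hnRNPs, which coat nascent transcripts, 15 had an IPA-3 change below 0 (median -0.08, against 55.58% of all genes below 0). With FRAX-597 12 were below 0 (median -0.04, against 54.7% of all genes below 0). HNRNPAB had 9.82 and 10.17 in FRAX-597, against 10.41 and 10.34 in DMSO 3 and 4. Both arrays were below DMSO, with a change of -0.38 ± 0.14 (adjusted p = 0.591), and with IPA-3 the change was -0.13. HNRNPA2B1, a reader of exonic and RNA transport elements, had changes of 0.00 with IPA-3 and 0.03 with FRAX-597. HNRNPA1, which represses exons, had changes of 0.03 with IPA-3 and -0.25 ± 0.23 with FRAX-597. HNRNPA1L2, a processed copy of HNRNPA1, had the lowest IPA-3 change of any member, -0.54 ± 0.25 (adjusted p = 0.711). It had 5.43 and 5.30 in IPA-3, against 6.21 and 5.60 in DMSO 1 and 2. Such copies and the 6 pseudogenes share sequence with their parents, so their signal is uncertain.

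The RBM genes were numerous and mostly level. Of the 18 that belong to the spliceosome or control splicing, 14 had an IPA-3 change below 0 (against 55.58% of all genes). With FRAX-597 9 did (against 54.7%). None passed an unadjusted p of 0.05 with either compound, where 7.21% of all genes did with IPA-3 and 7.66% with FRAX-597. RBM48, a partner of ARMC7 in the minor spliceosome, had 7.30 and 7.33 in FRAX-597, against 7.12 on both DMSO 3 and 4. It had 6.69 and 6.64 in IPA-3, against 6.85 on both DMSO 1 and 2. It thus lay above DMSO with one compound and below it with the other, and the difference was 0.38 ± 0.14 (adjusted p = 0.772). RBM39, the splicing factor degraded by aryl sulfonamide drugs, had changes of 0.02 with IPA-3 and 0.14 with FRAX-597. Among the 18 other RBM genes the medians were 0.00 with IPA-3 and -0.04 with FRAX-597.

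**Figure D4:**
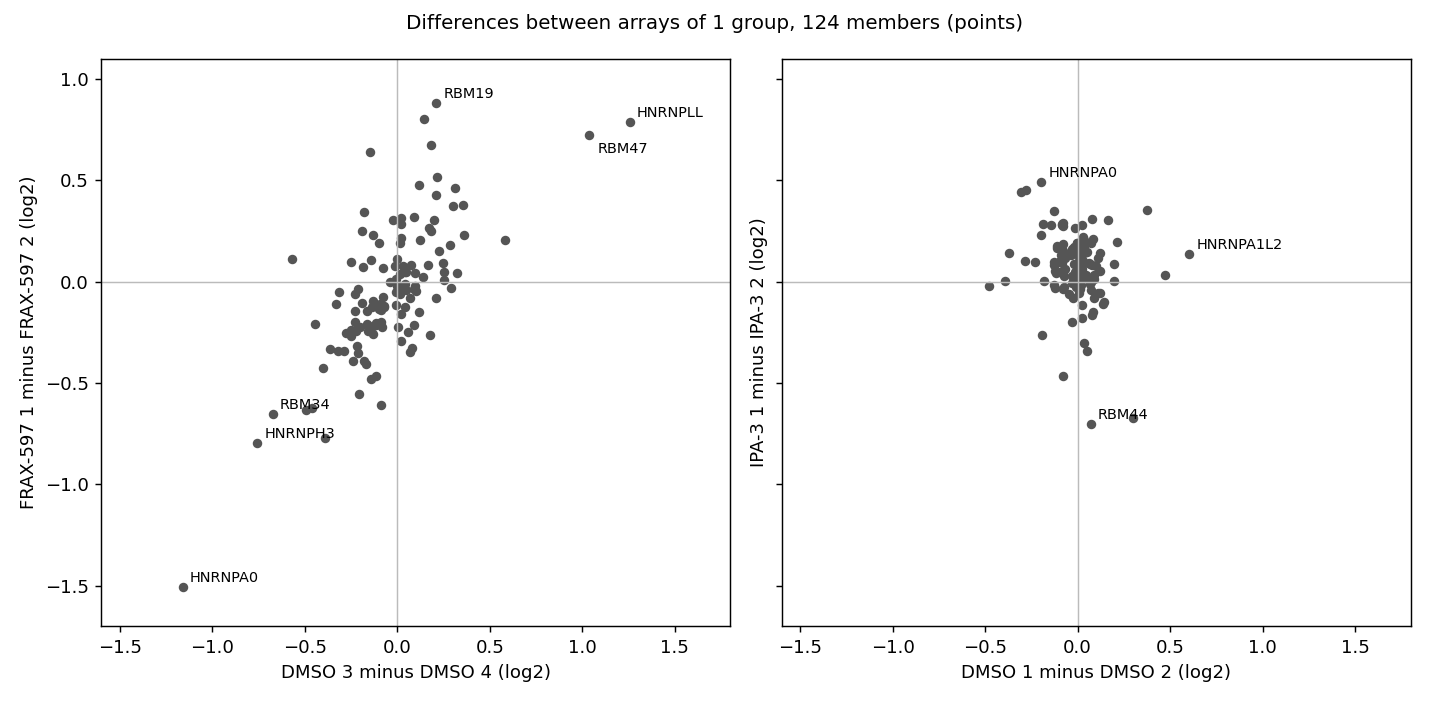
Difference between the 2 treated arrays against the difference between the 2 DMSO arrays for each of the 124 splicing genes (points), in the second set (left) and the first set (right), on the log2 scale. In the second set the points run along the diagonal (r = 0.71), and in the first set they do not (r = -0.19).

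The second set carried a structure of its own. FRAX-597 1 differed from FRAX-597 2 in the same direction as DMSO 3 differed from DMSO 4 for 90 of 124 members, and over the members these differences had r = 0.71 (n = 124 genes that share the same 4 arrays), against 0.65 over all genes. In the first set r was -0.19. HNRNPA0, an AU-rich element binding hnRNP, had 7.66 in FRAX-597 1 and 9.17 in FRAX-597 2, against 7.74 in DMSO 3 and 8.90 in DMSO 4. HNRNPLL, a regulator of CD45 splicing in T cells, ran the other way, with 7.45 in FRAX-597 1 and 6.66 in FRAX-597 2, against 7.27 in DMSO 3 and 6.01 in DMSO 4. RBM47, an RNA-binding cofactor of C-to-U editing, had 7.80 and 7.08 in FRAX-597 1 and 2, against 7.48 and 6.45 in DMSO 3 and 4. For these genes the arrays of 1 group lay further apart than the groups did. HNRNPH3 and RBM34 differed alike, with FRAX-597 values of 9.05 and 9.85 and of 8.79 and 9.45, against DMSO values of 9.12 and 9.88 and of 8.82 and 9.49. With FRAX-597 1 paired with DMSO 3 and FRAX-597 2 with DMSO 4 as a block, 14 members had an unadjusted p under 0.05 in place of 6. Over all genes that share was 14.8% in place of 7.66%. With the block 0 of 124 members and 202 of all genes passed after adjustment (lowest member RBM47, adjusted p = 0.0995, change 0.48). The labels do not state such pairs.

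Some members also differed between the sets with no compound. DMSO 3-4 minus DMSO 1-2 had a median of 0.48 over all genes and 0.28 over the members, with 6 members over 1 higher and 6 over 1 lower. SNRPD1 averaged 7.80 in DMSO 3-4 and 10.21 in DMSO 1-2, and SNRPD3 averaged 8.52 in DMSO 3-4 and 10.90 in DMSO 1-2. SNRPB, another Sm protein, was higher in DMSO 3-4, at 10.42, against 8.58 in DMSO 1-2, and so was LSM12, an Sm-like protein, at 10.34 in DMSO 3-4, against 8.79 in DMSO 1-2. These differences were larger than any change with a compound, and set and control cannot be told apart in them. Against all 4 DMSO arrays pooled, the IPA-3 change of SNRPD1 was 0.90 in place of -0.31, and that of SNRPD3 was 0.86 in place of -0.33.

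The changes with the 2 compounds had a correlation of 0.04 over the 124 members (the comparisons share no array), against 0.19 over all genes. Below 0 with both compounds were 53 members, where 88 were below 0 with IPA-3 and 68 with FRAX-597. The same count over all genes was not made. Across the rest of the splicing machinery, 117 further genes from lists of helicases and complex factors, snRNP assembly, exon junction, minor spliceosome and other regulators also had 0 calls, against 0.0336% of all genes with IPA-3 and 0.155% with FRAX-597. They had 89 of 117 below 0 with IPA-3 (76.07%, against 55.58% of all genes; median -0.09) and 83 of 117 below 0 with FRAX-597 (70.94%, against 54.7%; median -0.07). The 15 genes that assemble snRNPs, which load the Sm ring, had 14 below 0 with IPA-3 (median -0.15) and 13 with FRAX-597 (median -0.14). GEMIN5, the SMN complex subunit that recognises snRNA, had 8.78 and 8.91 in FRAX-597, against 9.29 and 9.39 in DMSO 3 and 4, a change of -0.50 ± 0.11 (adjusted p = 0.219). GEMIN4, of the same complex, had 7.02 and 7.37 in FRAX-597, against 7.79 and 7.88 in DMSO 3 and 4, a change of -0.64 ± 0.14 (adjusted p = 0.243). WDR77, a partner of the arginine methyltransferase that modifies Sm proteins, had changes of -0.42 with IPA-3 (adjusted p = 0.609) and -0.37 with FRAX-597 (adjusted p = 0.592). PPIL1, a cyclophilin of the active spliceosome, had -0.38 with IPA-3 (adjusted p = 0.570) and -0.40 with FRAX-597 (adjusted p = 0.419). ESRP1, an epithelial splicing regulator, had 7.07 and 6.37 in FRAX-597, against 5.66 and 6.02 in DMSO 3 and 4, a change of 0.88 ± 0.25 (adjusted p = 0.387). As for the members, none of these passed the adjusted test.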

How the data were processed

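The deposited series table holds log2 expression values of 53617 probes on 8 arrays, per the file headers and the values. The authors made them with Affymetrix Expression Console and Transcriptome Analysis Console, per the submitters' processing notes. Neither their summarisation nor their normalization, nor the array's build, is stated in these sources (not given in the sources used here). Platform annotation named 16098 probes with 1 gene, and 37519 probes are unnamed here. Where a gene had several probes (779 genes, 6 of them members), the one of highest mean over the arrays was kept. The 2 array sets were recognised from the values. That replicates came from separate cultures is not stated, so p-values reflect the spread of these arrays alone, which may be technical.

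All 14884 genes were fitted with limma 3.58.1 (R 4.3.3; lmFit, eBayes), with a mean each for IPA-3, FRAX-597, DMSO 1-2 and DMSO 3-4 (4 residual degrees of freedom). P-values were adjusted with Benjamini-Hochberg over all genes, with a threshold of 0.05. On simulated data with these spreads, 100 genes per compound were changed by 1 on the log2 scale and 100 by 2. Of those changed by 1, 86% (IPA-3) and 87% (FRAX-597) were called. Fewer genes passed in the real data, 5 with IPA-3 and 23 with FRAX-597, which makes the adjustment stricter. The simulated arrays also lacked the shared array differences of the second set. These shares therefore need not hold for the real data. Named genes were those with the largest changes among members whose arrays did not overlap, the largest differences between compounds, and a list of SR proteins, their kinases and core factors. Genes singled out for array differences, and other genes outside that rule, were chosen after their values were seen. The members and lists were chosen with earlier results of these data known. Of the 17 alternatives, 8 left out 1 array each. The lists of T cell, B cell, epithelial and erythroid markers had 3 of 5, 1 of 3, 3 of 6 and 0 of 1 measured genes above the array median on all arrays. Arrays have no read depth, and their number limits the precision.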

Additional observations from a re-analysis of the deposited data

Results flagged for a closer look

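RBM47 was the 1 member of 70 examined whose 4 DMSO arrays held 1 array far from the others. DMSO 3 had 7.48, against a median of 6.40 over the 4 arrays, and its gap to the nearest array was 0.871 of the whole range, above the critical value for 4 arrays. Chance sets 1 array apart in about 1 of 20 groups. That figure takes the 4 DMSO arrays as 1 group, while they belong to the 2 array sets, which differ in level. FRAX-597 1, the array that differs from its partner in the same direction, had 7.80 and FRAX-597 2 had 7.08.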

How the results depend on the processing

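No member passed an adjusted p under 0.05 in any of the 17 alternatives; the lowest was 0.0881, for RBM43 with FRAX-597 (change 0.79) without FRAX-597 2, where 227 of all genes passed. Of all genes, 96 passed with IPA-3 in its own set alone, and 72 with IPA-3 and 202 with FRAX-597 under the pair block, in place of 5 and 23. The members at an unadjusted p under 0.05, 5 with IPA-3 and 6 with FRAX-597, were 9 and 2 with each set fitted alone (against 15.1% and 4.07% of all genes), and 9 and 14 with the second set's arrays paired as a block (against 14.1% and 14.8%). With IPA-3 the count was also 1 after quantile normalization (against 6.22% of all genes) and 3 with every probe as a feature (against 5.88%, over the probes kept). Leaving out 1 array gave 1 to 6 with IPA-3 and 3 to 15 with FRAX-597. Against all 4 DMSO arrays, the members' median relative to all genes was 0.0509 with IPA-3 and -0.12 with FRAX-597, in place of -0.04 and -0.01, and that of the 31 snRNP, U2AF and PRPF members, an alternative chosen after seeing the data, was 0.0462 and -0.13, in place of -0.13 and -0.01; pooling mixes the array sets. Those 31 had -0.19 to -0.04 with IPA-3 and -0.03 to 0.01 with FRAX-597 when 1 array was left out.

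With pooled controls, 9 IPA-3 changes turned: CLK1 to -0.0352, HNRNPC -0.19, PRPF40B -0.19, RBM20 -0.23, SNRPD1 0.90, SNRPD3 0.86, SRPK3 -0.0909, SRSF1 0.15 and SRSF8 -0.42. So did 4 FRAX-597 changes, RBM4 to -0.16, SNRNP25 0.33, SNRNP40 0.18 and SRSF8 0.0711. With pooled controls the difference between the compounds is the FRAX-597 level minus the IPA-3 level, taken across the 2 array sets. The DMSO arrays drop out of it, and it includes the difference between the sets. By this measure 5 differences turned, HNRNPA1P33 to 0.55, LSM12 1.20, SRPK3 0.40, SRSF2 0.33 and SRSF8 0.49. Leaving out 1 array also turned differences between the compounds: HNRNPA0 ran from -0.33 (without FRAX-597 2; -0.16 without DMSO 3) to 1.18, HNRNPA1 from -0.59 to 0.0345 (without FRAX-597 1), HNRNPA1P33 from -0.55 to 0.0291 (without DMSO 3) and HNRNPLL from -0.22 (without DMSO 4) to 1.03. The cause of these turns without 1 array was not tested. The other 848 single-gene values kept their side. Of the summary values, 16 were counted as moved and 136 as not moved, which does not mean that each of the latter kept its side. The FRAX-597 median of the snRNP, U2AF and PRPF members, for example, did not keep its sign in every fit without 1 array. The labels state no pairs, and the pair block was taken from earlier results of these data.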
